A study of Rattus norvegicus with 6 samples.

Results

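Long noncoding RNAs (lncRNAs) of the NONCODE catalogue whose locus ran across one edge of an annotated gene, or enclosed a whole gene, were followed in rat sciatic nerve after a crush injury. The members were the NONCODE lncRNAs of at most 10000 bases whose genomic span overlapped the span of at least 1 gene and lay wholly inside none. There were 4013 such members among 22721 lncRNAs in the table (17.7%). Another 11681 NONCODE lncRNAs lay wholly inside a gene, and 4560 touched no gene. Each member was paired with the gene it shared the most bases with, which gave 3251 genes. The question was how these lncRNAs differed between control nerve, day 4 and day 7, and whether their overlapped gene differed in the same way.

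The animals were 1-month-old Sprague-Dawley rats with no genetic change. In the D4 and D7 groups the left sciatic nerve had been crushed at mid-length with forceps, and nerve tissue was collected after 4 or 7 days. The labels call the third group a normal control, and the study's methods describe its rats as operated on without the clamp. Each group had 2 rats and 1 RNA library per rat, named a and b, and the same 2 control libraries served both injury comparisons. The RNA came from whole nerve tissue, which holds Schwann cells, fibroblasts, endothelial cells, leukocytes and axons, so that fewer cells of a type and less RNA per cell cannot be told apart.

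An lncRNA that shares a stretch of the genome with a gene may run in the same or the opposite direction, may start at the same promoter, or may be an extension of the gene's own end. Some such transcripts are known to act on the neighbouring gene, and others are read only because the region is open. After a crush, axons beyond the lesion break down, Schwann cells leave the myelinating state and take up a repair state, and macrophages enter the nerve to clear myelin. The strand of the lncRNAs was not analysed here, so sense and antisense members were not separated. Reads that fell in the shared stretch could count for both transcripts, so the values of a pair are not independent.

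Promoter sequences of 4 overlapped genes are given because their members carry the contrasts described below: Sox2 with an lncRNA that moved against the gene, Hmga1 with a cluster of members that rose with it, Hapln2 with a member near 0 after injury, and Il16 with a member that fell and then partly returned. For Hmga1, Hapln2 and Il16 capitals mark a match, on either strand, to 1 of 3 searched motifs, which were TGANTCA (AP-1), GCGNGGGCG (EGR) and ACAANG (SOX). The sequences are from RefSeq on build GRCr8, 250 bases before to 50 bases after the listed start, and their coordinates cannot be compared with those of the lncRNAs, which are on Rnor_6.0.
Sox2, chr2:119464881-119465180, plus strand: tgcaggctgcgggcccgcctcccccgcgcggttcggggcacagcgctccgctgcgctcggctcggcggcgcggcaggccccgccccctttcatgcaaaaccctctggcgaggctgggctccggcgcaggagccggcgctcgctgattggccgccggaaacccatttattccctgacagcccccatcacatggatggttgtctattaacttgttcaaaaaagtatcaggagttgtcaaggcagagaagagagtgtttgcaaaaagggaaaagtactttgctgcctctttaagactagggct
Hmga1, chr20:5613258-5613557, plus strand: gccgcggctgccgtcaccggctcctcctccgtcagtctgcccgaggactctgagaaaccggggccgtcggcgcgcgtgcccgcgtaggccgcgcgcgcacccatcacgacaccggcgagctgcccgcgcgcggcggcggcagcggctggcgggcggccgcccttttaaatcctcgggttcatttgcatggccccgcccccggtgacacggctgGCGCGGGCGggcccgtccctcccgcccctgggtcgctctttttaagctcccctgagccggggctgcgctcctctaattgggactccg
Hapln2, chr2:175794389-175794688, minus strand: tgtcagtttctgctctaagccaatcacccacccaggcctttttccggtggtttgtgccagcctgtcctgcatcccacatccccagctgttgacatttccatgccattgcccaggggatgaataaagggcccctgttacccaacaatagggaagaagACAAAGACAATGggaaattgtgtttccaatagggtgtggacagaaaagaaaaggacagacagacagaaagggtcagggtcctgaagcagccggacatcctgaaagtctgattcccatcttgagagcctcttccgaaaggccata
Il16, chr1:147116693-147116992, minus strand: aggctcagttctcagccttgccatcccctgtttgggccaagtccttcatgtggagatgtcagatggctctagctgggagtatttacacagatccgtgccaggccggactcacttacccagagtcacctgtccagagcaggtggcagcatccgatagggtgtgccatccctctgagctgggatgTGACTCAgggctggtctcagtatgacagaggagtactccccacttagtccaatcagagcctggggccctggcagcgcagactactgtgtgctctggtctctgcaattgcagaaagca

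The Hmga1 window held 1 EGR match at positions 214 to 222, counted from 1 at its 5′ end. The Hapln2 window held 2 SOX matches, at 157 to 162 and 163 to 168, and the Il16 window held 1 AP-1 match at 184 to 190. None of the 3 motifs was in the Sox2 window. Among 27457 RefSeq promoters of the same length, 7.33% held AP-1 letters, 5.29% held EGR letters and 41.5% held SOX letters. Of 1195 genes whose start lay inside a member's locus, 1007 had a RefSeq promoter, and 35 of these held AP-1, 96 EGR and 345 SOX letters. A match is a run of letters and not a measured binding site, and the lncRNA sequences themselves were not analysed here.

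The members were short transcripts in wide loci. Their transcript length ran from 201 to 8497 bases with a median of 743, while the middle 50% of the loci spanned 1200 to 13192 bases. In 1203 members the span equalled the transcript length. The median share of the locus inside the gene was 79.9%, with quartiles at 35.6% and 98.8%. The gene lay whole inside the lncRNA locus in 443 members. Of the members that crossed 1 edge, 1367 covered the end of the gene and 1022 its start, and for 1181 the strand of the gene was not known. Several genes were overlapped by 517 members, up to 22 by a single one. Members also overlapped each other: 1129 shared bases with another member and the largest cluster held 12, so members of 1 locus are not independent of each other.

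**Figure D1:**
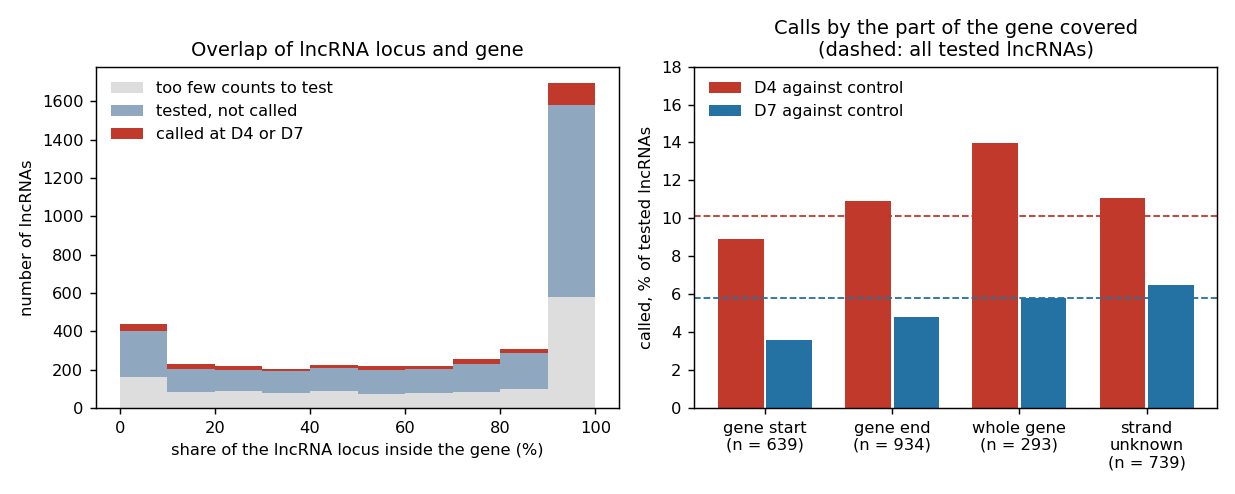
Left, number of lncRNAs by the share of their locus that lay inside the overlapped gene (%), split into those with too few counts to test, those tested and not called, and those called at D4 or D7. Right, share of tested lncRNAs called at D4 and D7 by the part of the gene covered, with all tested lncRNAs as dashed lines; at D4 the bar for gene starts reaches 8.92%, the lowest of the 4, and 1697 lncRNAs lie over 90% inside the gene.

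The members took 18.6% and 18.3% of all lncRNA counts in the control libraries, and 21.4% and 21.0% at D4, with the D7 libraries between these values. Most were weakly read. The median count of a member was between 12 and 18 per library, between 372 and 478 members were at 0 in a given library, and 36 had no count anywhere. A test was possible for 2605 members (64.9%), and for 2515 of them the overlapped gene could be tested too. The other 1408 members had too few counts, and no direction is given for them.

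Across the whole series the lncRNA libraries held 2694777 to 3043817 counts and the gene libraries 18727255 to 25350886. Fold changes came from edgeR's quasi-likelihood test over all lncRNAs with Benjamini-Hochberg adjustment, and a difference was called at an adjusted p under 0.05 with at least a 2-fold change. Nerve identity was visible in the summed CPM (counts scaled to library size) of 37 myelin and Schwann cell genes, all with counts, at 108166 and 77316 in control, 9744 and 10848 at D4, and 28722 and 19528 at D7. The summed CPM of 45 leukocyte markers was 1706 to 1935 in control, 5315 to 6775 at D4 and 4488 to 4860 at D7, and all 45 had counts. Of 21 skeletal muscle markers measured, 20 had counts, with Myl2 at 0, and their sums were 63.6 and 95.4 in control, 152 and 34.6 at D4, and 48.7 and 66.1 at D7. The adipocyte sums were 9848 and 12448 in control, 2005 and 1590 at D4, and 1027 and 4816 at D7, over 16 detected of 18 markers with Pnpla2 and Ucp1 at 0. The part of these cell types in the results below was not tested.

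At D4, 282 members were called, 180 higher and 102 lower than control. This was 10.8% of the members tested, against 10.1% of all lncRNAs tested (5.19% higher and 4.87% lower). The called members overlapped 265 genes and fell into 267 separate loci, and 784 members had an unadjusted p under 0.05. The median log2 fold change was 0.18 for the members and 0.02 for all lncRNAs. The split between higher and lower depended on the scaling, with 241 and 78 without scaling factors and 189 and 179 when lncRNAs and mRNAs were scaled together. These scalings moved the median of all lncRNAs to 0.20 and −0.19 and that of the members to 0.35 and −0.04. The number called rested on every library: it was 67 without D4 a, 61 without D4 b, 153 without control a, 153 without control b, 187 without D7 a and 191 without D7 b.

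Calls at D4 were more frequent where counts were higher, with 6.98% of members under a mean of 20 counts and 14.7% of those at 200 or more. Members enclosing a whole gene were called in 41 of 293 cases, those over a gene end in 10.9% of 934, and those over a gene start in 8.92% of 639. Members whose span equalled their transcript length were called in 12.7% of 802 cases and the others in 9.98% of 1803. These shares are descriptions, since the strata also differ in counts, with a median of 61.8 counts for whole genes and 32 for gene starts.

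Members that rose at D4 lay at genes with different roles. The lncRNA NONRATT005050.2 (chr10:103448779-103451586), which shares 77.2% of its locus with Cd300a, an inhibitory receptor of leukocytes, had 14 and 12 counts in control, 477 and 353 at D4, and 300 and 264 at D7. Both injured pairs lay above both controls, with a log2 fold change of 4.84 (SE 0.30, edgeR adjusted p = 0.00239) at D4. Cd300a itself rose from 30 and 18 counts to 466 and 401. At Hist1h2ah, a histone H2A gene of a family with near-identical copies whose counts are therefore uncertain, NONRATT012479.2 went from 9 and 10 counts to 1200 and 1836 (log2 7.12, SE 0.27, edgeR adjusted p = 0.000790). NONRATT016308.2 at Zmat3, an RNA-binding target of p53, had 69 and 58 counts in control, 944 and 1236 at D4 and 1031 and 1039 at D7 (log2 3.93, SE 0.18, edgeR adjusted p = 0.00117 at D4). The Zmat3 gene had 148 and 142 counts in control and 222 and 306 at D4, and it was not called. These 3 lncRNA calls held without each library in turn.

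Several rises started from a count of 0 in both control libraries. NONRATT001006.2 at P4ha3, a subunit of the enzyme that hydroxylates collagen prolines, had 94 and 54 counts at D4, at least 22.4-fold higher than a floor of 3 counts per library. Its gene rose from 11 and 8 to 273 and 164 counts. For NONRATT029670.2 at Fam132b, which encodes the iron-regulating hormone erythroferrone, the rise to 55 and 49 counts was at least 15.6-fold. NONRATT001137.2 at Ccp110, a protein that caps centrioles, reached 34 and 72 counts at D4 and 44 and 69 at D7, at least 15.5-fold and 17.6-fold higher. NONRATT024954.2 at Bcap29, a membrane protein of the endoplasmic reticulum, had 0 and 1 counts in control and 73 and 75 at D4, a ratio of 132 with a 95% counting interval of 23.4 to 5259. All 4 were called at D4, and each D4 call was lost without at least 1 library. The adjusted p rose to 0.0563 for P4ha3 without D4 a, to 0.0592 for Fam132b without D4 a or D4 b, to 0.063 for Ccp110 without D4 b and to 0.0645 for Bcap29 without D4 a or D4 b. The D7 call at Ccp110 was lost without either control or either D7 library (adjusted p up to 0.0682). Counting intervals and floors cover counting error only.

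Other large rises at D4 were more scattered. NONRATT015765.2, at the end of Camk2d, a calcium-dependent protein kinase, had 3 and 15 counts in control, 351 and 601 at D4 and 157 and 18 at D7 (log2 5.50, SE 1.26, edgeR adjusted p = 0.0499 at D4). The groups did not overlap at D4, but the call was lost without either control or either D4 library, with adjusted p values up to 0.171. NONRATT001432.2 encloses the unnamed gene AC109096.1 and had 3 and 0 counts in control and 75 and 71 at D4, a ratio of 43.5 with a 95% counting interval of 14.6 to 213. Its gene stayed between 56 and 97 counts in all 6 libraries. The call of this lncRNA was lost without D4 a or D4 b, with adjusted p values up to 0.0975.

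Among the members that fell at D4 were several at genes of myelin and axon contact. NONRATT023718.2, which encloses Ncmap, a protein of noncompact myelin, had 942 and 550 counts in control, 7 and 10 at D4 and 68 and 117 at D7 (log2 −6.59, SE 0.47, edgeR adjusted p = 0.00251 at D4). NONRATT023717.2 covers the last 193 bases of the same gene, with 9941 and 5788 counts in control, 7 and 10 at D4, and 1124 and 21 at D7. Ncmap fell from 7698 and 4240 counts to 24 and 26. The 2 lncRNAs fell with the gene at D4, and the D7 libraries of NONRATT023717.2 lay far apart, with no call at D7 (edgeR adjusted p = 0.194). The D4 call of NONRATT023717.2 was lost without either control or either D4 library (adjusted p up to 0.205), while that of NONRATT023718.2 held without each library.

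Further falls went in the same direction as their gene. NONRATT026163.2 at LOC688613 (chr7:123485924-123490083) had 459 and 324 counts in control, 0 and 1 at D4 and 19 and 14 at D7, a ratio of 876 with a 95% counting interval of 157 to 34649 at D4. NONRATT026168.2 (chr7:123525780-123526722), at the gene of septin 3 (ENSRNOG00000007686), a filament-forming GTP-binding protein, had 1356 and 997 counts in control and 8 and 17 at D4 (log2 −6.71, SE 0.57, edgeR adjusted p = 0.00396), beside a gene that went from 2584 and 1850 to 41 and 35. NONRATT011122.2 at Lect1, which encodes chondromodulin, a matrix glycoprotein, went from 163 and 105 counts to 1 and 3. In these 3 pairs the lncRNA and the gene were low together at D4, and the D4 calls of the lncRNAs held without each library. The loci at LOC688613 and septin 3 are near each other on chromosome 7.

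NONRATT016552.2 at Hapln2, a link protein that binds hyaluronan around nodes of Ranvier, had 83 and 50 counts in control, 2 and 0 at D4, and none at D7. The D7 level was at least 23.5-fold lower than control, and the gene was likewise at 162 and 87 counts in control, 4 and 0 at D4 and 0 in both D7 libraries. NONRATT018798.2 at Myh7b, a myosin heavy chain, went from 170 and 88 counts to 3 and 0 at D4 and to 0 at D7, at least 45.4-fold lower at D7. Its gene had 530 and 442 counts in control, 242 and 281 at D4 and 394 and 327 at D7, and was called lower at D4 (log2 −1.41, SE 0.12, edgeR adjusted p = 0.000485) and not at D7. For both lncRNAs the calls at D4 and D7 were lost without either control library or either library of the injured group, with adjusted p values up to 0.0971.

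NONRATT019604.2 had 2637 and 1937 counts in control, 11 and 19 at D4, and 328 and 72 at D7 (log2 −7.41, SE 0.87, edgeR adjusted p = 0.00864 at D4). It shares 1186 bases with Pla2g4b, a cytosolic phospholipase, whose counts went from 241 and 242 to 636 and 683. It also shares 95 bases with an edge of Sptbn5, a beta spectrin of the membrane skeleton, whose counts went from 6321 and 4651 to 45 and 45 at D4 and 898 and 260 at D7. The lncRNA thus went the way of the gene with which it shares fewer bases. Its D4 call was lost without D4 a or D4 b (adjusted p up to 0.0789).

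Gene lists of nerve cell types and functions were laid over the members, and counts in them are not independent evidence because the lists were put together with results of these data known. Injury and repair factors had 12 members at Sox2, Hmga1 and Cdkn1a, of which 10 were tested, 7 rose and 1 fell at D4, and 5 rose and 1 fell at D7. Over all lncRNAs tested 5.19% were called higher and 4.87% lower at D4, and 3% higher and 2.79% lower at D7. The median log2 fold change over the tested members was 3.48 at D4 and 2.79 at D7, against 0.02 and 0.04 for all lncRNAs. Of these 12 members, 9 lie at Hmga1 and overlap each other, so they are close to a single observation. The list of macrophage and other leukocyte genes had 12 members, with 6 of 11 tested members higher and none lower at D4, and 2 higher at D7, with medians of 2.52 and 1.45. Cell cycle genes had 5 members, with 2 of 4 tested members higher at D4 and 1 at D7.

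Hmga1 encodes a chromatin protein of dividing cells, and its gene rose from 31 and 26 counts in control to 337 and 469 at D4 and 206 and 214 at D7. The member with the most counts in control, NONRATT017192.2, had 24 and 18 counts in control, 154 and 356 at D4, and 155 and 95 at D7 (log2 3.41, SE 0.47, edgeR adjusted p = 0.0135 at D4). NONRATT017193.2 went from 4 and 6 counts to 61 and 74 at D4 and 33 and 47 at D7, and NONRATT017195.2 from 8 and 8 to 94 and 218 and then 85 and 49. NONRATT017189.2 and NONRATT017190.2 had no count in control and 20 and 31 or 18 and 17 at D4, which is at least 7.52-fold and 5.23-fold higher. In all of these the D4 counts exceeded the control counts, and the lncRNA to gene ratio was not called for any of them. The D4 calls were each lost without at least 2 libraries, with adjusted p values of up to 0.114. NONRATT017194.2 at the same locus had 1628 and 23 counts at D4 and 8 and 779 at D7, and its replicates differed too much for a call.

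NONRATT017172.2 at Cdkn1a, the cyclin-dependent kinase inhibitor p21, had 48 and 37 counts in control, 243 and 333 at D4 and 322 and 263 at D7, and rose by 2.59 (SE 0.23, edgeR adjusted p = 0.00477) at D4 on the log2 scale. NONRATT008267.2 at Kif14, a kinesin of cell division, rose from 6 and 9 counts to 97 and 150 at D4 (log2 3.84, SE 0.37, edgeR adjusted p = 0.00547), beside a gene that rose from 4 and 19 to 506 and 673. NONRATT005363.2 at Pttg1, the securin of mitosis, went from 13 and 3 to 73 and 81 counts, a call that was lost without any 1 of the 6 libraries (adjusted p 0.0515 to 0.157). NONRATT030262.2 at Hjurp, a chaperone of the centromeric histone, had 1 and 36 counts in control and 449 and 568 at D4 and was not called (edgeR adjusted p = 0.0792).

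At leukocyte genes, NONRATT010334.2 at Lgals3, the macrophage lectin galectin-3, had 89 and 107 counts in control, 560 and 707 at D4 and 550 and 457 at D7 (log2 2.52, SE 0.22, edgeR adjusted p = 0.00440 at D4). NONRATT002625.2 at Cd37, a tetraspanin of leukocytes, went from 6 and 3 counts to 65 and 72 at D4 and then 12 and 10 at D7. NONRATT008958.2 at Fcer1g, a signalling chain of Fc receptors, went from 23 and 25 counts to 105 and 138 at D4. The Lgals3 call at D4 held without each library, and those of Cd37 and Fcer1g were lost without D4 a or D4 b, with adjusted p values up to 0.0526 and 0.0679. NONRATT008999.2 at Mnda, NONRATT026769.2 at Lyz2 and NONRATT023929.2 at Tnfrsf14 were also called higher at D4. These 3 calls were each lost without either control or either D4 library, with adjusted p values up to 0.145, 0.136 and 0.188. The lncRNA at Lyz2, the macrophage lysozyme, moved from 94 and 123 counts to 345 and 357, while its gene moved from 3894 and 3401 to 23662 and 26274. The summed leukocyte markers given above rose in the same libraries.

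Myelin and Schwann cell genes had 14 members, of which 4 of 10 tested fell at D4 and 2 at D7, against 4.87% and 2.79% lower over all lncRNAs tested, with medians of −0.44 and −0.28. The list also held Mpv17, which encodes a mitochondrial inner membrane protein, and 4 of the 10 tested members lie there, none of them called. The 4 that fell lie at Ncmap and Mobp. Mobp encodes the myelin-associated oligodendrocyte basic protein, and NONRATT028170.2 there had 190 and 82 counts in control, 0 and 5 at D4 and 3 and 1 at D7. The Mobp gene had 237 and 73 counts in control, none at D4 and 10 and 0 at D7. By contrast NONRATT017682.2 at S100b, a Schwann cell calcium-binding protein, had 1029 and 539 counts in control and 926 and 836 at D4. It was not called. The D4 calls at Mobp were lost without D4 a or D4 b and, for NONRATT028170.2, without control a (adjusted p up to 0.0745), and for NONRATT028173.2 without control b or either D7 library (up to 0.158), while without control a that lncRNA had too few counts to test.

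Channel and axon contact genes had 10 members, with 4 of 9 tested members lower at D4, 3 lower at D7 and none higher, against 4.87% and 2.79% lower over all lncRNAs tested, and with medians of −1.88 and −2.28. NONRATT027645.2 at Fxyd2, the gamma subunit of the sodium pump, had 1011 and 604 counts in control, 244 and 241 at D4 and 177 and 176 at D7 (log2 −1.88, SE 0.25, edgeR adjusted p = 0.0125 at D4). NONRATT021510.2 at Ctnna2, the neuronal alpha catenin, went from 78 and 40 counts to 5 and 4. Each of these genes also fell at both days. A second called member at Fxyd2, NONRATT027646.2, covers nearly the same bases, so that 2 of the 4 D4 calls are close to a single observation. The D4 calls were lost without D4 a or D4 b for NONRATT027645.2 (adjusted p up to 0.0983), also without control a for NONRATT021510.2 (up to 0.114), and without either control or either D4 library for NONRATT027646.2 (up to 0.207).

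Extracellular matrix genes had 14 members, all tested, with 1 higher at D4 and 1 lower at D7, against 5.19% higher at D4 and 2.79% lower at D7 over all lncRNAs tested, and medians of −0.27 and −0.32. Of the 14, 5 lie at Sema6c, a transmembrane semaphorin and not a matrix protein. NONRATT025473.2 at Mmp19, a matrix metalloproteinase, rose from 43 and 30 counts to 114 and 164 (edgeR adjusted p = 0.0170), a call that was lost without either control or either D4 library (up to 0.106). NONRATT015552.2 at Sema6c had 138 and 125 counts in control and, lower, 26 and 21 at D7 (edgeR adjusted p = 0.0477), lost without either control or either D7 library (up to 0.194). Skeletal muscle genes had 4 members, of which 1 was called, NONRATT002487.2 at Ryr1, with 28 and 13 counts in control and none at D4 or D7. That D4 call was lost without control b or any D4 or D7 library (adjusted p up to 0.155), and without control a the lncRNA had too few counts to test. The endothelial, pericyte and perineurial list had 3 members with 1 tested and none called, and no member overlapped an adipocyte gene.

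**Figure D2:**
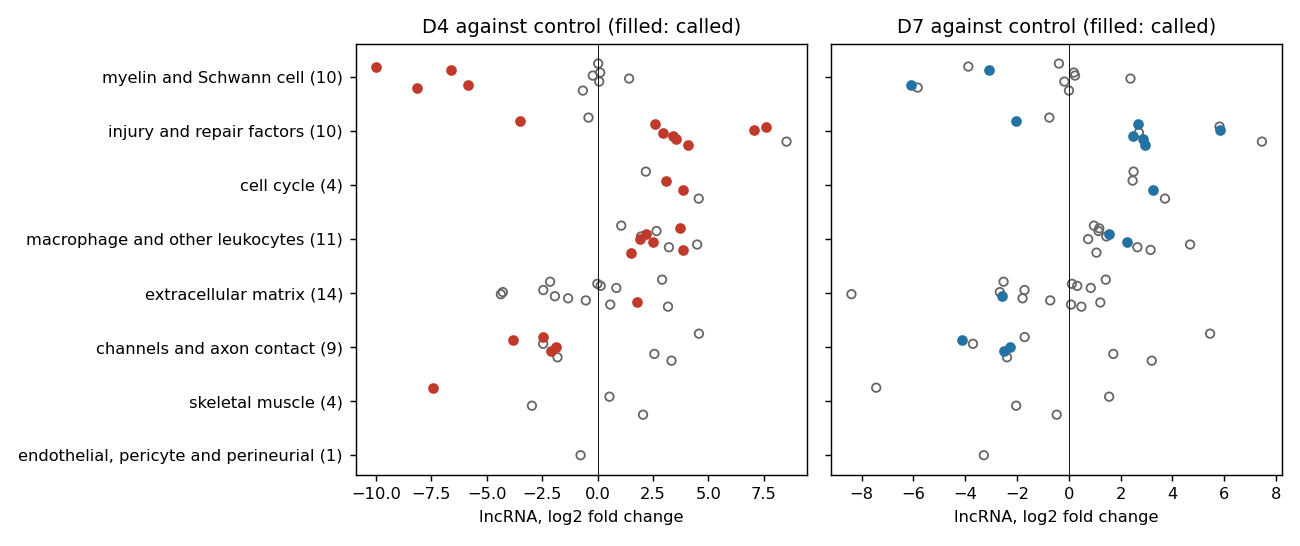
Log2 fold change of each tested lncRNA at genes of the lists, D4 and D7 against control. The lists were put together with results of these data known. Filled points are called lncRNAs and open points the others. Points of the injury and repair list reach a median of 3.48 at D4, and those of channels and axon contact a median of −1.88.

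At D7, 133 members were called, 78 higher and 55 lower than control. This was 5.11% of the members tested, against 5.79% of all lncRNAs (3% higher and 2.79% lower), and 677 members had an unadjusted p under 0.05. The median log2 fold change was 0.14 for the members and 0.04 for all lncRNAs. The split was 118 higher and 48 lower without scaling factors and 157 and 120 with lncRNAs and mRNAs scaled together, where the medians of all lncRNAs were 0.20 and −0.01 and those of the members 0.30 and 0.09. The number called was 77 without control a, 71 without control b, 64 without D4 a, 57 without D4 b, 35 without D7 a and 45 without D7 b. Since D4 and D7 share the control libraries, the 2 sets of calls are not independent and their overlap is not given.

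The largest rises at D7 included a member at Gas2l3 and those already described at Ccp110, Hist1h2ah and Cd300a. NONRATT015182.2 at Cp, the copper-binding ferroxidase ceruloplasmin, had 3 and 6 counts in control, 77 and 95 at D4 and 107 and 99 at D7 (log2 4.38, SE 0.39, edgeR adjusted p = 0.00691 at D7). The Cp gene had 3940 and 3655 counts in control and 6947 and 6987 at D7. The ratio of the lncRNA to Cp rose by 3.31 at D7 on the log2 scale, a call lost without either D4 or either D7 library (limma adjusted p up to 0.156). Hps3, a gene of lysosome-related organelles, overlaps 70.8% of the same locus and was called higher at D7 (log2 1.09, edgeR adjusted p = 0.00445). NONRATT000633.2 at Cd33, a sialic acid-binding receptor of myeloid cells, had 8 and 5 counts in control and 55 and 130 at D7 (log2 3.72, SE 0.54, edgeR adjusted p = 0.0223). Its D7 call was lost without any library other than D7 a (adjusted p up to 0.111), while that of NONRATT015182.2 held without each library.

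Among falls at D7, NONRATT023757.2 at Pla2g5, a secreted phospholipase, had 268 and 157 counts in control, 43 and 63 at D4 and 9 and 5 at D7 (log2 −4.99, SE 0.43, edgeR adjusted p = 0.00690 at D7). Its gene had 575 and 364 counts in control, 290 and 339 at D4 and 67 and 68 at D7. Between D4 and D7 the gene was called lower (edgeR adjusted p = 0.0122), a call lost without D4 a, D4 b or D7 a (up to 0.144), and the lncRNA was not called (log2 −2.83, edgeR adjusted p = 0.0975). NONRATT028560.2, which encloses the unnamed gene AABR07070161.3, had 104 and 30 counts in control, 67 and 72 at D4 and 2 and 3 at D7. Its D7 call (edgeR adjusted p = 0.0263) was lost without any D4 or D7 library, with adjusted p values up to 0.150.

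In most pairs where the lncRNA was called, the gene was called in the same direction. At D4 the gene could be tested for 274 called members. In 170 of these pairs both were called the same way, 100 higher and 70 lower, which is 62.0% of the called members against 63.7% over all called lncRNAs that overlap a gene. In 6 pairs both were called in opposite directions, and in 98 the lncRNA alone was called, 71 of them with a gene whose fold change had the same sign. The reverse was frequent, with 303 pairs in which the gene alone was called. Over all lncRNA and gene pairs tested, 5.35% were called the same way and 0.113% in opposite directions. Genes were called more often than lncRNAs, at 21.9% of all genes tested and 19.3% of the genes overlapped by a tested member.

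At D7, 131 called members had a tested gene, with 84 pairs called the same way (46 higher and 38 lower, 64.1% against 67.8% over all called lncRNAs overlapping a gene), 3 in opposite directions and 44 with the lncRNA alone. The gene alone was called in 295 pairs. Over all pairs the shares were 3.16% the same way and 0.066% in opposite directions, and the gene was called in 15.7% of overlapped genes against 18.8% of all genes. Across 2515 pairs Pearson's r of the 2 fold changes was 0.58 at D4 and 0.55 at D7, and the sign was the same in 70.0% and 70.6%. These correlations are across pairs that share libraries and may share reads, and genes are not replicates. The number of pairs called the same way fell without single libraries, to 79 without control a, 96 without control b, 41 without D4 a and 39 without D4 b at D4. At D7 it was 34 and 46 without control a or b, 43 and 38 without D4 a or b, and 21 and 23 without D7 a or b.

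**Figure D3:**
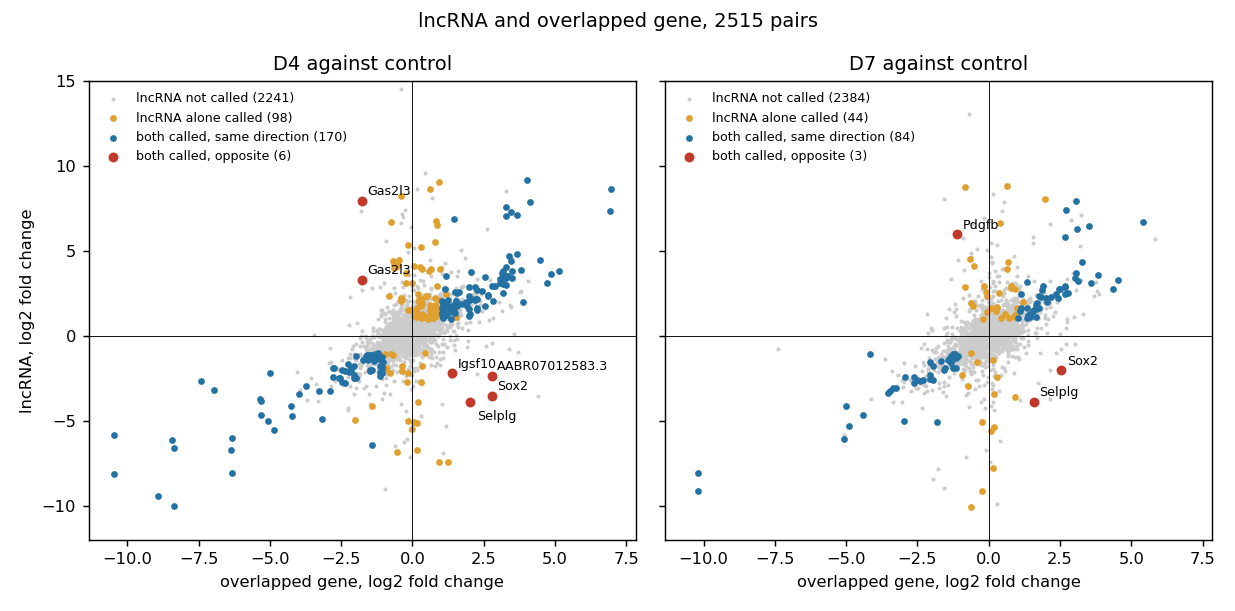
Log2 fold change of the lncRNA against that of its overlapped gene for 2515 pairs, at D4 and D7 against control, with grey points where the lncRNA was not called. The 170 pairs called the same way at D4 lie along the diagonal, and the 6 opposite pairs lie in the upper left and lower right.

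Opposite directions were found for 7 lncRNAs in all, and their values in each library are shown in the plot of opposite pairs. NONRATT015220.2 (chr2:121153325-121193232) encloses Sox2, a transcription factor that holds Schwann cells in an immature state and whose promoter is printed above. It had 508 and 315 counts in control, 48 and 31 at D4 and 101 and 112 at D7. Sox2 had 400 and 314 counts in control, 3274 and 3796 at D4 and 2412 and 2377 at D7. The lncRNA was thus below both controls and the gene above both controls in all 4 injured libraries. The log2 fold changes at D4 were −3.51 (SE 0.37, edgeR adjusted p = 0.00650) and 2.80 (SE 0.10, edgeR adjusted p = 0.000112), and the ratio of lncRNA to gene fell by 6.25 on the log2 scale (limma adjusted p = 0.00441). At D7 they were −2.03 and 2.54. The D4 call held without each library, and the D7 call was lost without any 1 of them, with adjusted p values of 0.0508 to 0.171.

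A longer transcript over the same region, NONRATT015219.2 (chr2:121062177-121193562), had 2631 and 1617 counts in control, 1619 and 1939 at D4 and 1435 and 1244 at D7. It was not called at D4 (log2 −0.41, edgeR adjusted p = 0.271) or D7 (log2 −0.75, edgeR adjusted p = 0.102). Its ratio to Sox2 fell by 3.17 at D4 on the log2 scale (limma adjusted p = 0.00783), as the gene rose. A difference between the 2 lncRNAs was not tested. Only 6.04% of the locus of NONRATT015220.2 and 1.83% of that of NONRATT015219.2 lie inside Sox2.

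Gas2l3, which links actin filaments and microtubules, was paired with 2 members that rose while the gene fell. NONRATT026655.2 covers 1558 bases at the end of the gene (chr7:29959586-29961154) and had 17 and 4 counts in control, 2807 and 3026 at D4 and 5607 and 4161 at D7. The gene had 30893 and 21740 counts in control, 9918 and 11842 at D4 and 19103 and 14776 at D7. The lncRNA rose by 7.96 (SE 0.65, edgeR adjusted p = 0.00356) at D4 and by 8.77 (SE 0.67, edgeR adjusted p = 0.00512) at D7 on the log2 scale, and the gene fell by 1.78 at D4. Both lncRNA calls held without each library. NONRATT026654.2 spans 5 genes and went from 8 and 15 counts to 115 and 143 at D4, and its call was lost without D4 a or D4 b (adjusted p up to 0.0574).

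NONRATT007629.2 at Selplg, the P-selectin ligand of leukocytes, had 23 and 21 counts in control, 2 and 1 at D4 and 2 and 1 at D7. The control level was 16.4-fold that at D4 with a 95% counting interval of 5.26 to 82.6, while Selplg rose from 58 and 43 to 317 and 262 counts. NONRATT015315.2 overlaps the last 148 bases of Igsf10, an immunoglobulin superfamily gene, and had 41 and 34 counts in control, 9 and 9 at D4 and 18 and 21 at D7, while the gene went from 783 and 693 to 2601 and 2902 and then 1554 and 2592. NONRATT015588.2 lies almost wholly inside the unnamed gene AABR07012583.3 and fell from 84 and 94 to 17 and 22 counts while the gene rose from 99 and 77 to 587 and 1153. In all 3 pairs no injured D4 library overlapped the controls in either transcript. The D4 calls of the 3 lncRNAs were lost without D4 a or D4 b, and those of NONRATT007629.2 and NONRATT015315.2 also without either control, with adjusted p values up to 0.119, 0.110 and 0.0676 in the order given.

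NONRATT027130.2, at the end of Pdgfb, a growth factor for pericytes and fibroblasts, had 1 count in each control and D4 library and 86 and 65 counts at D7. The D7 level was 70.6-fold that of control, with a 95% counting interval of 19.2 to 589. Pdgfb had 661 and 963 counts in control, 673 and 440 at D4 and 433 and 458 at D7 and was called lower at D7 (log2 −1.10, SE 0.33, edgeR adjusted p = 0.0435). The D7 call of the lncRNA held without each library. The call of the gene at D7 was lost without control b, D7 a or D7 b (adjusted p up to 0.164), and also without scaling factors, with lncRNAs and mRNAs in 1 fit and with the letter as a replicate block. The pair was then no longer one called in opposite directions.

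**Figure D4:**
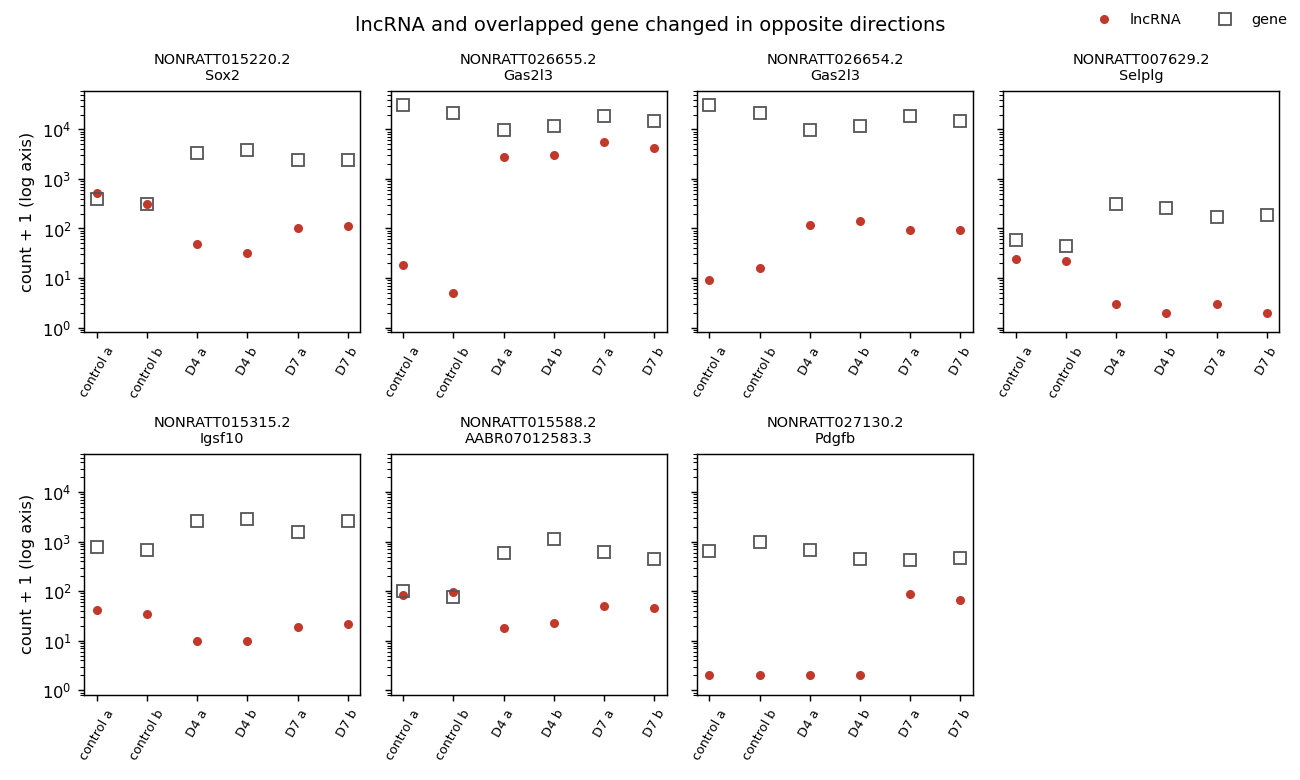
Counts plus 1 on a log axis of 7 lncRNAs (filled circles) and their overlapped genes (open squares) in each of the 6 libraries, for the pairs called in opposite directions at D4 or D7. At Sox2 the lncRNA drops to 48 and 31 counts at D4 while the gene reaches 3274 and 3796, and at Gas2l3 the lncRNA climbs from 17 and 4 to 2807 and 3026.

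The number of opposite pairs moved with single libraries. At D4 it was 5 without control a, 8 without control b, 4 without D4 a, 3 without D4 b, and 7 without D7 a or D7 b. At D7 it was 1 without control a, control b, D4 b or D7 b, 2 without D4 a and 0 without D7 a.

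Some members were near 0 in one group and well read in another while their gene was not called. NONRATT030987.2 at Prrg1, a vitamin K-dependent membrane protein, had 7 and 8 counts in control, 205 and 150 at D4 and 4 and 3 at D7, beside a gene at 1340 to 1680 counts throughout. After scaling the gene was lower at D4 by less than the 2-fold needed for a call (log2 −0.68, SE 0.09, edgeR adjusted p = 0.00209). The lncRNA was high at D4 alone (log2 4.39, SE 0.36, edgeR adjusted p = 0.00359), and this D4 call held without each library.

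The reverse order was seen at D7. NONRATT019532.2 at Qser1 (chr3:94702639-94704697) had 706 and 465 counts in control, 605 and 742 at D4 and 1 and 1 at D7, and the control level was 626-fold that at D7, with a 95% counting interval of 173 to 5174. Qser1 had 3816 to 5036 counts in all 6 libraries. NONRATT022818.2 at Fbxo42, the substrate-binding part of a ubiquitin ligase, had 425 and 390 counts in control, 535 and 625 at D4 and 10 and 8 at D7 (log2 −5.58, SE 0.22, edgeR adjusted p = 0.00121 at D7), beside a gene at 984 to 1598 counts. These 2 D7 calls held without each library, and at D4 neither lncRNA was called (log2 0.05 and 0.35).

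At Zrsr2, a splicing factor, NONRATT030503.2 had 111 and 120 counts in control, 1 and 1 at D4 and 1 and 6 at D7, and at Tmem218 NONRATT027576.2 had 25 and 26 counts in control and 1 count in all injured libraries together. The 2 genes were not called at either day. The D4 call was lost without D4 a or D4 b for NONRATT030503.2 (adjusted p up to 0.0698), and without either control or either D4 library for NONRATT027576.2 (up to 0.130). Both lncRNAs were low at both days.

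**Figure D5:**
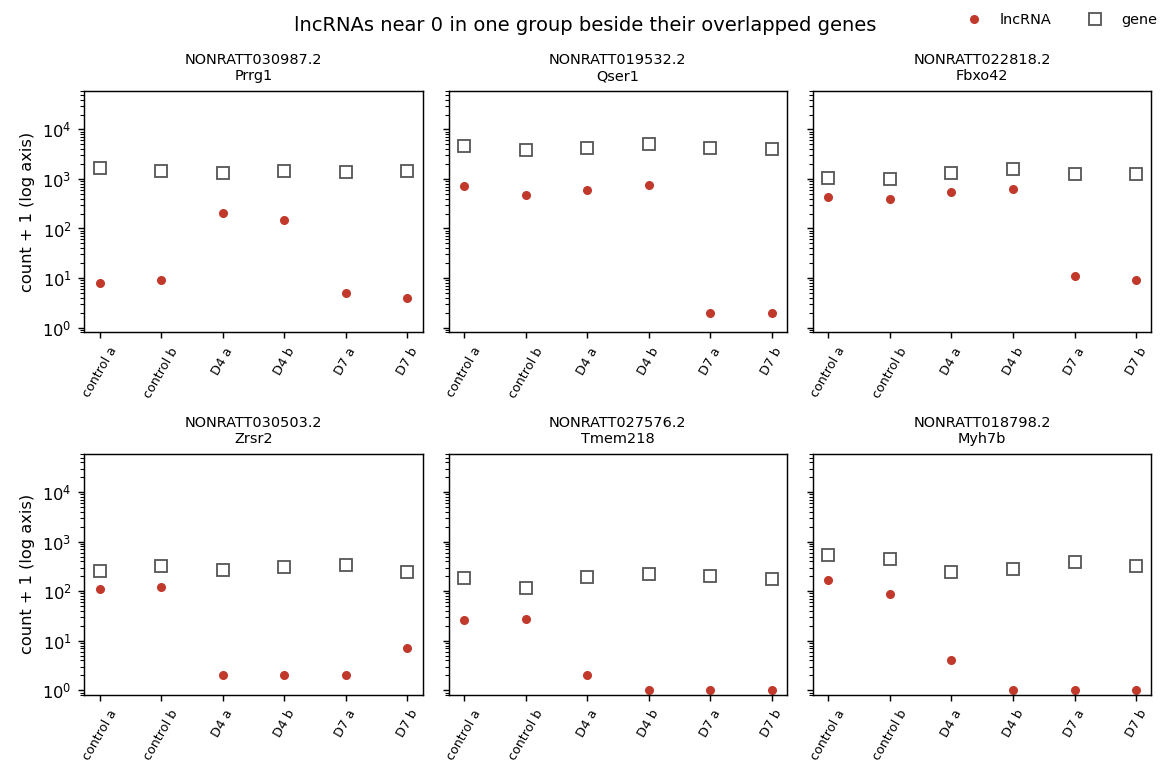
Counts plus 1 on a log axis of 6 lncRNAs that were near 0 in at least 1 group (filled circles) and of their overlapped genes (open squares) in each of the 6 libraries. The lncRNA at Prrg1 is at 205 and 150 counts at D4 and at 3 to 8 elsewhere, and the lncRNA at Qser1 is at 1 and 1 at D7, while the squares of each gene stay within a 10-fold range.

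Counted over all members, 20 had at least 50 counts in both libraries of a group and at most 3 in both libraries of another, a threshold chosen after the values were seen. From control to D4, 7 members went up in this way (0.174% of members, with 30 among all lncRNAs, 0.132%) and 6 went down (0.150%, with 21 among all lncRNAs, 0.0924%). From control to D7, 1 went up (0.0249%, with 22 among all lncRNAs, 0.0968%) and 7 went down (0.174%, with 16 among all lncRNAs, 0.0704%). These shares were not tested. In 9 of the 20 the span of the locus equalled the transcript length. Not all were called. NONRATT002460.2, which encloses Eid2b, had 123 and 0 counts in control, none at D4, and 170 and 144 at D7. Its control replicates thus stood at 123 counts and at 0.

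The change of the lncRNA relative to its gene was tested directly with limma on the log2 ratio of their CPM. At D4 the ratio changed in 47 pairs, 29 higher and 18 lower, which is 1.87% of the pairs tested against 1.48% of all pairs of an lncRNA and a gene (0.999% higher and 0.481% lower). At D7 it changed in 23 pairs, 11 higher and 12 lower (0.915% against 0.754%, of which 0.424% higher and 0.33% lower). Of the 170 pairs called the same way at D4 the ratio was called in 4, of the 98 with the lncRNA alone in 28, of the 303 with the gene alone in 7, and of the 6 opposite pairs in all 6. A call of one transcript and not of the other was therefore most often not matched by a called difference between them. At D7 the ratio was called in 13 of 44 pairs with the lncRNA alone, 5 of 295 with the gene alone and 1 of 84 called the same way. The number of ratio calls at D4 was 33 and 25 without control a or b, 10 and 9 without D4 a or b, and 22 without D7 a or D7 b. At D7 it was 21 and 15 without control a or b, 8 without D4 a or D4 b, and 11 and 14 without D7 a or b.

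Large called ratio changes were found at Gas2l3 (log2 9.73 at D4 and 9.58 at D7 for NONRATT026655.2), Pla2g4b (−8.18 at D4) and Qser1 (−7.42 at D7). The ratio of NONRATT012479.2 to Hist1h2ah rose by 3.22 at D4, that of NONRATT016308.2 to Zmat3 by 3.57 and that of NONRATT015182.2 to Cp by 3.39. Of the 311 bases of NONRATT012479.2, 307 lie inside Hist1h2ah. That gene was called higher too (log2 3.67), from 78 and 98 counts in control to 1292 and 1962 at D4. The lncRNA had 1200 and 1836 counts at D4, and how many reads were counted for both was not tested. NONRATT013913.2 runs over more than a megabase on chromosome 18 and 16 genes, and had 0 counts in both controls and 39 in each D4 library, at least 11.6-fold higher than a floor of 3 counts per library. Its ratio to Cfap53, a protein of cilia, was called higher at D4, and the call was lost without either control or either D4 library (limma adjusted p up to 0.0807). Of the other genes tested in that locus Me2 (log2 1.74) and Ska1 (log2 4.25) were called higher at D4 and 7 were not called, and the ratio to these genes was not tested. NONRATT009430.2 at Rab28 rose from 12 and 18 to 97 and 78 counts while the gene moved from 1501 and 1152 to 983 and 1147, a ratio change of 3.08 at D4. Of the D4 ratio calls, those at Sox2 (NONRATT015220.2) and Gas2l3 (NONRATT026655.2) were among the few of 21 named that held without each library and under every other setting tried, and of 15 named at D7 those at Qser1, Fbxo42 and Gas2l3 (NONRATT026655.2) did.

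Between D7 and D4, 9 members were called, 5 higher and 4 lower at D7, which is 0.345% of the members tested against 0.249% of all lncRNAs (0.142% higher and 0.107% lower). An unadjusted p under 0.05 was found for 320 members, and DESeq2 called 64. In 4 pairs, at Il16, Emid1, Col28a1 and C1ql3, the gene rose from D4 to D7 as well, and each of these gene calls was lost without D4 a or D4 b (adjusted p up to 0.177). Over all genes 2.18% were called, 1.68% as higher. The ratio changed in 6 pairs, all lower at D7 (0.239% of pairs against 0.198% of all pairs, 0.141% lower). NONRATT002846.2 at Il16, a cytokine precursor gene, had 802 and 534 counts in control, 22 and 27 at D4 and 228 and 154 at D7, and its gene 4073 and 2818, 480 and 592, and 1638 and 1121. NONRATT010108.2 at Emid1, a matrix protein, had 999 and 1156 counts in control, 121 and 105 at D4 and 971 and 794 at D7. NONRATT021233.2 at Col28a1, a collagen of the nerve sheath matrix, had 660 and 509, 34 and 42, and 324 and 199 counts. In all 3, both D4 libraries lay below the other 4 libraries.

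NONRATT013137.2 at C1ql3, a secreted protein of the C1q family, had 2113 and 1620 counts in control, 357 and 591 at D4 and 3672 and 2443 at D7, so that both D7 libraries lay above both controls. The log2 change from D4 to D7 was 3.02 (SE 0.30) at Il16, 3.02 (SE 0.23) at Emid1, 2.84 (SE 0.29) at Col28a1 and 2.77 (SE 0.29) at C1ql3, with edgeR adjusted p values of 0.0449, 0.0161, 0.0478 and 0.0478. Further calls were those at Pdgfb (6.13), Qser1 (−9.16), Fbxo42 (−5.92) and Prrg1 (−5.56), none of whose genes was called. Of these, the calls at Qser1 and Fbxo42 held without each library. The 6 at Il16, Emid1, Col28a1, C1ql3, Pdgfb and Prrg1 were lost without at least 3 libraries, with adjusted p values of up to 0.240, and the number called over all members was 15 without D7 b.

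In FPKM, fragments scaled by transcript length and library size, the highest members lay at abundant genes. NONRATT016627.2 encloses S100a11, a calcium-binding protein, and its level was 183 and 305 FPKM in control, 606 and 607 at D4, and 361 and 420 at D7. NONRATT011827.2 at Tpm4, a tropomyosin, had 285 and 284, 402 and 419, and 290 and 319 FPKM. NONRATT004417.2 at one edge of Gas7, a protein that shapes cell outgrowth, had 99.2 and 95.4 FPKM in control, 233 and 262 at D4 and 363 and 332 at D7. Of these 3, the lncRNA at Gas7 was called at both days (log2 1.38 and 1.65, edgeR adjusted p = 0.00385 and 0.00457) and held without each library, with a gene that rose by 1.42 and 1.77.

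NONRATT002642.2 at Ftl1, the ferritin light chain, had 100 and 62.3 FPKM in control and 273 and 273 at D4 and was called at D4 (edgeR adjusted p = 0.0171), which was lost without D4 a or D4 b (up to 0.0956), as was the D4 call at S100a11 (up to 0.105). Ftl1, S100a11 and Hnrnpa2b1 can share reads with similar copies elsewhere in the genome, and their counts are uncertain. Other members among the 10 highest, at Sepp1, Hnrnpa2b1, Col5a1, Col5a2 and Prkar1a, had mean levels of 117 to 164 FPKM and no call at either day. NONRATT005019.2 at Prkar1a, a regulatory subunit of protein kinase A, ranged only from 105 to 138 FPKM over the 6 libraries.

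The rule admitted members at its edges. Among called members the smallest shared stretch was 4 bases (0.124% of the locus), between NONRATT030267.2 and the unnamed gene AABR07068285.2. This lncRNA had 5 and 6 counts in control, 116 and 159 at D4 and 66 and 76 at D7, and its neighbour 0 and 3, 47 and 55, and 25 and 28. NONRATT016093.2 shares 14 bases (0.801%) with Elovl7, an enzyme that lengthens fatty acids, and went from 3881 and 2928 counts to 99 and 137 at D4 and 510 and 251 at D7, beside a gene at 1607 and 1152, 51 and 67, and 169 and 115. NONRATT021820.2 shares 111 bases (0.722%) with Rimklb and fell from 92 and 86 to 19 and 16 counts at D4. In all 3 the lncRNA and the gene were called the same way at D4, with little of the locus shared. The percentages are shares of the locus and not of the transcript. The transcript of NONRATT021820.2 has 624 bases in a locus of 15381. Its 111 shared bases can therefore be a larger part of the transcript, and shared reads were not tested. The D4 calls of the first 2 held without each library, and that of NONRATT021820.2 was lost without D4 a or D4 b (adjusted p up to 0.0956).

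At the other edge, NONRATT009430.2 at Rab28, NONRATT010492.2 at Cab39l and NONRATT026808.2 at Fam19a2 reach only a few bases past their gene. NONRATT010492.2 had 171 and 219 counts in control, 33 and 53 at D4 and 87 and 143 at D7. NONRATT026808.2 had counts in the D7 libraries alone, 39 and 27, at least 10.3-fold higher than control. The calls at Rab28 and Cab39l at D4 were lost without either D4 library and control a, and at Cab39l also without control b (adjusted p up to 0.101 and 0.126). The call at Fam19a2 at D7 was lost without any 1 library (0.0617 to 0.209).

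Of the lncRNAs named in the study's main text, 3 were members. NONRATT015315.2 at Igsf10 is described above. NONRATT030680.2 at Col4a5, a basement membrane collagen, had 64 and 2 counts in control, 337 and 309 at D4 and 94 and 3 at D7. Its 2 control libraries differed as much as its groups, and it was not called at D4 (log2 3.18, SE 1.64, edgeR adjusted p = 0.266) or D7 (edgeR adjusted p = 0.879). Col4a5 itself had 1749 and 2882 counts in control, 955 and 1052 at D4 and 468 and 880 at D7. NONRATT013801.2 at Ppp2r2b, a regulatory subunit of protein phosphatase 2A, had 59 and 38 counts in control, 9 and 17 at D4 and 37 and 21 at D7, and was called lower at D4 (log2 −2.05, SE 0.46, edgeR adjusted p = 0.0467). The call was lost without any single library (up to 0.200), with the letter as a replicate block, without scaling factors, without the low-count filter and with only the 2 groups compared. Its gene had 366 and 241 counts in control, 81 and 83 at D4 and 160 and 101 at D7 and was called lower at both days, without a loss when any library was left out. Of the 66 named members called at D4, 20 held without each library and under every other setting, and at D7 this was 12 of 45.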

How the data were processed

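RNA of 6 rat sciatic nerves was depleted of ribosomal RNA and sequenced. Per the study's methods and the submitters' processing notes, reads were aligned with HISAT2 2.0.4 and transcripts assembled with StringTie 1.3.0 on Rnor_6.0, with NONCODE and Ensembl annotation. The authors deposited whole-number read counts and FPKM for lncRNAs and for genes; how reads shared by both were assigned is not given in the sources used here. Counts were used for every test and the FPKM that the authors deposited for levels only. Columns not mapped to a sample numbered 0.

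Members were found from the coordinates in the tables, and the whole lncRNA table (14077 lncRNAs) and gene table (15195 genes) were each fitted in edgeR 4.0.16 (filterByExpr, TMM, glmQLFit, glmQLFTest) over all 6 libraries in groups control, D4 and D7. P-values were adjusted by Benjamini-Hochberg over the whole table. The log2 ratio of lncRNA to gene CPM (prior count 2) was fitted over 10606 pairs in limma 3.58.1. With 2 libraries a group an exact two-sided permutation test could not go below p = 0.333, so no such test is given. The labels do not say more of the samples than their group. The spread behind the p-values was estimated over all 6 libraries together and moderated across lncRNAs, genes or pairs. It is thus not the spread of the 2 groups compared alone, and it rests on 2 libraries a group. The code was tested on simulated data.

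Genes were named by rank: the 10 largest rises and falls at each day among called members with a mean of at least 50 counts in a group and no overlap between groups, all members called between D7 and D4, all opposite pairs, the 10 largest called ratio changes at each day, the 10 highest FPKM, up to 6 called members a gene list, members named in the study's main text, and 3 members at each edge of the rule. Members that share a locus with these (NONRATT015219.2, NONRATT017194.2), the members at Ppp2r2b, Hjurp, S100b, Cdkn1a and Eid2b, the members at Tcf7 and Col2a1, and the genes Sptbn5, Me2 and Ska1 were added after their values were seen. A floor of 3 counts per library stood for 0 in folds, and ratios from 1 to 3 counts have exact 95% intervals. Some named members and marker genes are not reported here. The members and lists were chosen with earlier results of these data known. The part of a gene that a member covers was set from gene strands in RefSeq. Alternatives were other scalings, filters and tools, single libraries left out, a replicate block and other overlap rules. Replicate libraries correlated at 0.863 (control), 0.862 (D4) and 0.847 (D7) over the 2605 tested members.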

Additional observations from a re-analysis of the deposited data

Results flagged for a closer look

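A difference between D7 and D4 by a direct test drew attention to 8 lncRNAs and 5 lncRNA to gene ratios. The lncRNAs changed from D4 to D7 by −9.16 on the log2 scale at Qser1, −5.92 at Fbxo42 and −5.56 at Prrg1, and by 6.13 at Pdgfb, 3.02 at Il16, 3.02 at Emid1, 2.84 at Col28a1 and 2.77 at C1ql3. The ratio to the gene changed by −7.87 at Qser1, −5.75 at Fbxo42 and −5.28 at Prrg1. It also changed by −2.95 for NONRATT005417.2 at Tcf7, a transcription factor of T cells, where the lncRNA had 1 and 1 counts in control, 16 and 23 at D4 and 1 and 1 at D7 and the gene 88 and 112 at D4 and 101 and 84 at D7. For NONRATT027313.2 at Col2a1, a cartilage collagen, the ratio changed by −3.94, since the gene went from 97 and 136 counts at D4 to 2874 and 1455 at D7 while the lncRNA had 69 and 92 and then 137 and 85. The 3 ratios at Qser1, Fbxo42 and Prrg1 fell with the lncRNA, and that at Col2a1 fell as the gene rose.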

How the results depend on the processing

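The directions of the named calls were the same under every alternative tried, and 0 reversed. Counts of calls moved more. DESeq2 called 285 members at D7 and 64 between D7 and D4, with 157 pairs called the same way at D7. With lncRNAs and mRNAs in 1 fit there were 277 at D7, 24 between D7 and D4, 10 opposite pairs at D4 and 151 same-way pairs at D7. Without the low-count filter, 153 and 62 members were called at D4 and D7, with 98 and 42 same-way pairs. With at least 10 counts in every library there were 2 and 1 opposite pairs and 10 ratio calls at D7. Pairs that share at least 50% of the lncRNA span gave 2 opposite pairs at D4, and 47 same-way and 1 opposite pair at D7. Those that share less gave 53 and 37 same-way pairs. Leaving out single libraries gave 61 to 191 members at D4, 35 to 77 at D7 and 7 to 15 between them, 39 to 120 and 21 to 46 same-way pairs, 3 to 8 and 0 to 2 opposite pairs, and 9 to 33 and 8 to 21 ratio calls. The cause of these moves was not tested, except that fewer libraries or pairs enter by construction.

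With the letter as a replicate block, 175 members were called at D4, 69 at D7 and 3 between them, with 48 same-way and 0 opposite pairs at D7 and 17 and 5 ratio calls. The sources do not say whether the letters pair the rats. Deviations of same-lettered libraries correlated at 0.0456 (control and D4), 0.0657 (control and D7) and 0.0137 (D4 and D7) over all tested lncRNAs. These values cannot decide it, because counting error at low counts can hide a deviation shared by a letter. Depth and replicate number both limit these results, with a median member at 12 to 18 counts per library, 1408 members untested and 2 rats a group.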
